A study of Mus musculus with 6 samples.

Results

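The genes described here encode the receptor chains through which lung macrophages and lymphocytes sense CSF1, GM-CSF, IL-2, IL-3, IL-4, IL-7 and IL-13. They were chosen by name, and all 10 of them (Csf2ra, Csf2rb, Csf2rb2, Il3ra, Csf1r, Il4ra, Il13ra1, Il2rg, Il7r and Il2ra) were found among the 40564 genes of each table. RNA was sequenced in bulk from bronchoalveolar lavage (BALF) cells, the cells rinsed from the airspaces of the mouse lung. The 6 libraries were 2 of Cis Stat6 KO (labelled as the double knockout), which lack CIS and STAT6, 2 of Cis KO, which lack CIS, and 2 of WT. The cells of every group were untreated, and all libraries carried 1 batch date. The labels used here do not state the alleles, whether the deletions were germline or limited to a cell type, the strain, age or sex of the mice, or how many mice gave each library.

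Cytokine receptors of this family have no enzyme of their own. Binding of the cytokine brings 2 or more chains together, JAK kinases held by the chains phosphorylate them and the STAT proteins that dock there, and the STATs enter the nucleus. The common beta chain and the IL-7 and IL-2 receptors work mainly through STAT5, and the IL-4 and IL-13 receptors through STAT6. CIS, the protein of Cish, is induced by STAT5 and dampens these receptors in turn. CSF1R differs in being a receptor tyrosine kinase. In the lung, GM-CSF is needed for alveolar macrophages to form and to clear surfactant lipids, and IL-4 and IL-13 drive their alternative activation. IL-7 and IL-2 receptors are known mostly from lymphocytes.

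The library totals lay between 50762354 and 65937118 counts. Both targeted genes were low in the libraries labelled as lacking them. Cish was at 1.72 and 5.04 CPM (read counts scaled by library size and TMM factor) in Cis Stat6 KO, 4.34 and 3.52 CPM in Cis KO and 46.2 and 56.2 CPM in WT. Stat6 was at 31.6 and 25.5 CPM in Cis Stat6 KO, 264.0 and 221.1 CPM in Cis KO and 232.6 and 226.6 CPM in WT. Alveolar macrophage markers were present in every library: 9 of the 9 markers in the files (Siglecf, Marco, Car4, Chil3, Pparg, Fabp1, Krt79, Itgax and Mrc1) had counts. Cis KO replicate 2 stood apart from the other libraries. Haemoglobin genes took 3.29% of its counts, against at most 0.0366% elsewhere, and 15855 genes had a count, against 19641 to 20431 elsewhere. Its 6 B cell markers summed to 99.0 CPM, against 0.491 to 16.2 CPM elsewhere. Its 6 neutrophil markers summed to 411.8 CPM, against 76.5 to 230.7 CPM. The neutrophil markers did not move as a set. S100a8, S100a9, Cxcr2 and Retnlg were higher in both Cis Stat6 KO libraries than in WT, Csf3r was lower and Ly6g overlapped. S100a9 was at 27.7 and 72.3 CPM in Cis Stat6 KO, 0.438 and 132.7 CPM in Cis KO and 1.35 and 1.24 CPM in WT. The part of these differences in the receptor values was not tested. Of the receptor genes, fold changes without Cis KO replicate 2 are given for Csf2ra, Csf1r, Il13ra1 and Il2rg. Other values in Cis KO may depend on it too. In bulk RNA, fewer cells of a type and less RNA per cell cannot be told apart.

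Of the 10 receptor genes, Il7r alone passed the test in any comparison: it was lower in Cis KO than in WT. All 10 passed the filter on low counts and were tested, among 16765 genes in all, by edgeR's quasi-likelihood test, at an adjusted p under 0.05. In Cis KO against WT, 1 of 10 receptor genes was called, where the background over all genes tested was 0.274%. In Cis Stat6 KO against Cis KO it was 0 of 10 (background 0.358%), and in Cis Stat6 KO against WT 0 of 10 (background 0.131%). At an unadjusted p under 0.05 the counts were 2, 2 and 3 of 10, beside 11.1%, 18.3% and 5.36% of all genes. DESeq2 called 1, 2 and 0 of 10, beside 3.21%, 9.18% and 1.89% of all genes, and limma-voom with library quality weights called 0 in each. The labels do not say that replicates came from separate mice, so these p-values measure the spread between libraries, which may be technical.

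The libraries of the 2 groups did not overlap in 5 of 10 receptor genes in Cis KO against WT, where 47.4% of all genes did not overlap. The counts were 7 of 10 (background 50.4%) in Cis Stat6 KO against Cis KO and 5 of 10 (background 46.8%) in Cis Stat6 KO against WT. In both comparisons with WT these shares were near the background. The median log2 fold change of the 10 genes was -0.22, 0.30 and 0.01 in these comparisons, beside -0.05, 0.05 and -0.0027 over all genes tested. The comparisons share libraries, so they are not independent of each other. Over the 6 libraries, log2 CPM (0.1 CPM added) spanned 3.32 in Il7r and 5.98 in Il2ra from lowest to highest. In the other receptor genes the span was 0.49 (Csf2rb) to 0.83 (Il2rg). The median span over all genes tested was 1.32, but these include genes of far lower counts and were not matched for level.

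**Figure D1:**
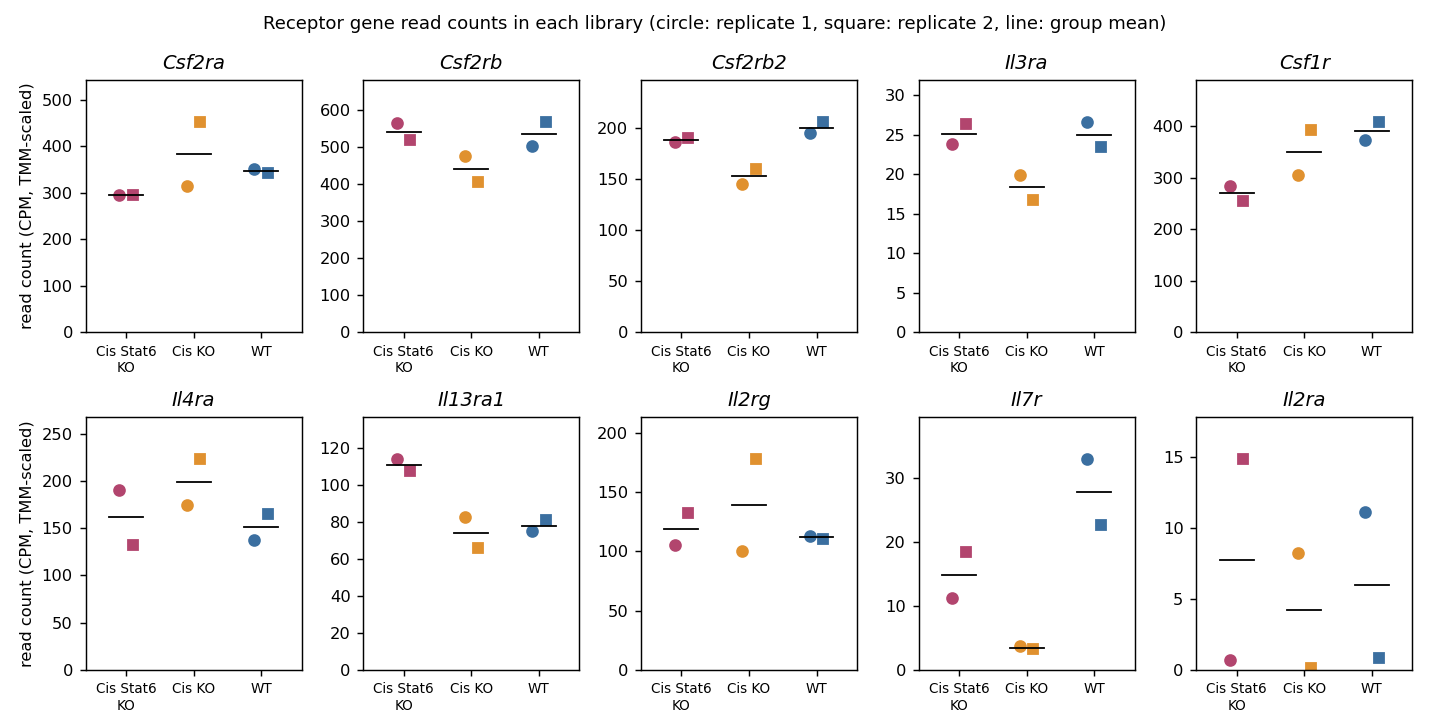
TMM-scaled read counts (CPM, linear axes from 0) of the 10 receptor genes in each library, by genotype; circles are replicate 1, squares replicate 2 and lines the group means. Il7r is at 3.74 and 3.20 CPM in Cis KO, below every other library, while Il2ra has a high and a low library in each genotype.

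Per length of transcript, the chains for GM-CSF were the most abundant of the 10. Compared as the authors' FPKM, the level of Csf2ra was 99.9 and 85.9 in Cis Stat6 KO, 107.9 and 122.1 in Cis KO and 115.7 and 111.7 in WT, the highest of the 10 in each genotype. By the group mean Csf2rb followed in each genotype, although in Cis KO its libraries (64.1 and 43.0 FPKM) overlapped those of Csf1r (51.9 and 52.7) and Il2rg (41.2 and 57.7). In WT the order went on with Csf1r (61.2 and 66.2 FPKM), Il2rg (44.9 and 43.4), Csf2rb2 (38.9 and 40.6), Il4ra (21.7 and 25.7), Il13ra1 (19.1 and 20.4), Il3ra (8.48 and 7.36), Il7r (6.68 and 4.53) and Il2ra (1.84 and 0.13). Neighbours in the WT order overlapped only for Csf2rb and Csf1r. Within Cis Stat6 KO, Il2rg ranked above Csf1r and Il13ra1 above Il4ra, with overlapping libraries in both cases. In Cis KO, Il7r was lowest at 0.78 and 0.53 FPKM, and Il2ra, at 1.41 and 0.02 FPKM, overlapped it.

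**Figure D2:**
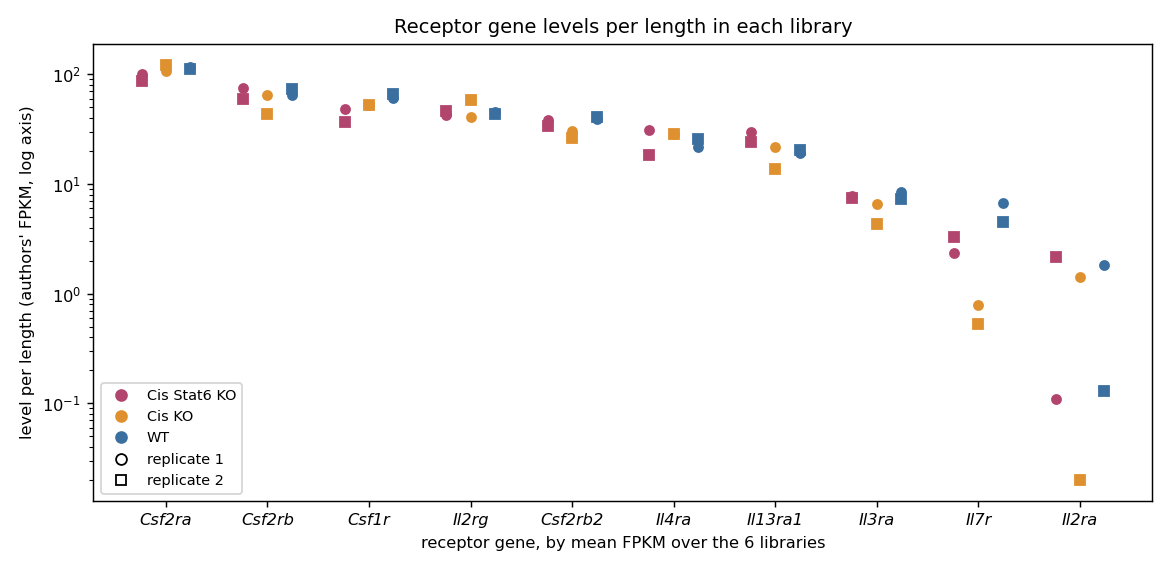
The authors' FPKM (log axis) of the 10 receptor genes in each library, ordered by the mean over the 6 libraries; colours are genotypes, circles replicate 1 and squares replicate 2. Csf2ra leads in each genotype, and Il7r lies between 0.53 and 0.78 FPKM in Cis KO, against 4.53 to 6.68 FPKM in WT.

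Csf2ra encodes the alpha chain that binds GM-CSF (ENSMUSG00000059326, mm10 chromosome 19, 61223957 to 61228429, minus strand). Its level was 294.8 and 294.9 CPM in Cis Stat6 KO, 315.5 and 452.6 CPM in Cis KO and 350.7 and 343.1 CPM in WT. The Cis Stat6 KO libraries were the lowest of the 6, and Cis KO replicate 2 was the highest. The log2 fold change (± SE, 2 libraries per group) was -0.38 ± 0.21 in Cis Stat6 KO against Cis KO, -0.23 ± 0.21 in Cis Stat6 KO against WT and 0.15 ± 0.21 in Cis KO against WT, with edgeR adjusted p of 0.377, 1 and 0.778. Without Cis KO replicate 2, the value in Cis KO against WT was -0.13, the opposite sign. Without Cis KO replicate 1, the value in Cis Stat6 KO against Cis KO was -0.61, with Cis KO replicate 2 standing alone for its group.

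Csf2rb encodes the common beta chain that carries the signal of GM-CSF, IL-3 and IL-5 (ENSMUSG00000071713, mm10 chromosome 15, 78325752 to 78351001, plus strand). It was at 563.1 and 517.4 CPM in Cis Stat6 KO, 474.9 and 403.9 CPM in Cis KO and 501.8 and 567.3 CPM in WT. Both Cis KO libraries lay below the other 4. Its neighbour Csf2rb2, on the minus strand (ENSMUSG00000071714, mm10 chromosome 15, 78282507 to 78305721), encodes a beta chain that in mice serves IL-3. Csf2rb2 was at 186.3 and 190.1 CPM in Cis Stat6 KO, 145.2 and 159.7 CPM in Cis KO and 194.8 and 205.9 CPM in WT. Here too both Cis KO libraries were the lowest.

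None of these beta chain differences passed the test. Csf2rb differed by 0.30 ± 0.18 (log2, SE, n = 2 per group) in Cis Stat6 KO against Cis KO, by 0.02 ± 0.18 in Cis Stat6 KO against WT and by -0.28 ± 0.18 in Cis KO against WT, with edgeR adjusted p of 0.414, 1 and 0.535. Csf2rb2 differed by 0.30 ± 0.16, -0.09 ± 0.16 and -0.39 ± 0.16 in these comparisons, with edgeR adjusted p of 0.351, 1 and 0.438. The FPKM of Csf2rb was 1.97 and 1.77 times that of Csf2rb2 in the Cis Stat6 KO libraries, 2.13 and 1.65 times in Cis KO and 1.68 and 1.79 times in WT, with overlapping ranges.

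Csf2rb and Csf2rb2 are close copies, which makes their separate counts uncertain. Over 2628 aligned bases of their coding sequences (GENCODE M21, the 2688 and 2634 bases of the transcripts compared), 95.2% were identical. Of all 50-base windows, 18.4% of the Csf2rb transcript and 19.0% of the Csf2rb2 transcript were found unchanged in the other. The share was 6.96% and 7.20% for 100 bases and 3.47% and 3.59% for 150 bases. The sources used here do not say how reads that match both genes were assigned. A stretch of 90 bases of the 5' part of the coding sequence is shown because it is where the copies differ much; capitals mark the 16 positions at which they differ, and the stretch covers coding bases 308 to 397 of Csf2rb and 311 to 400 of Csf2rb2.
Csf2rb: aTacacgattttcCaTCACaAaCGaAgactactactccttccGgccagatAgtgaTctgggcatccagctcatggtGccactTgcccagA
Csf2rb2: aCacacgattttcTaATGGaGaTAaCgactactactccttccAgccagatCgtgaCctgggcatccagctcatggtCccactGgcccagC

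Il3ra encodes the alpha chain that binds IL-3 (ENSMUSG00000068758, mm10 chromosome 14, 14346275 to 14355493, plus strand). It was at 23.9 and 26.3 CPM in Cis Stat6 KO, 20.0 and 16.7 CPM in Cis KO and 26.6 and 23.4 CPM in WT. As for the beta chains, both Cis KO libraries were below the other 4. On the log2 scale, with SE over 2 libraries per group, the fold change was 0.45 ± 0.21 in Cis Stat6 KO against Cis KO, 0.0047 ± 0.21 in Cis Stat6 KO against WT and -0.45 ± 0.21 in Cis KO against WT, with edgeR adjusted p of 0.306, 1 and 0.46.

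Csf1r encodes the receptor for CSF1 and IL-34, the main survival receptor of macrophages (ENSMUSG00000024621, mm10 chromosome 18, 61100598 to 61131134, plus strand). It was at 284.9 and 254.6 CPM in Cis Stat6 KO, 305.4 and 392.8 CPM in Cis KO and 373.0 and 408.5 CPM in WT. The Cis Stat6 KO libraries were the lowest of the 6. Fitted log2 fold changes (± SE, n = 2 each) were -0.53 ± 0.20 in Cis Stat6 KO against WT, -0.37 ± 0.20 in Cis Stat6 KO against Cis KO and -0.16 ± 0.20 in Cis KO against WT. None passed edgeR's test, with adjusted p of 0.828, 0.352 and 0.732. Without Cis KO replicate 1 the value in Cis Stat6 KO against Cis KO was -0.53, and without Cis KO replicate 2 it was -0.19.

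Il4ra encodes the chain that both IL-4 receptors share and that STAT6 docks on (ENSMUSG00000030748, mm10 chromosome 7, 125552120 to 125579474, plus strand). It was at 190.5 and 132.2 CPM in Cis Stat6 KO, 174.2 and 223.0 CPM in Cis KO and 137.6 and 165.2 CPM in WT. The Cis Stat6 KO libraries spanned those of WT, and the Cis KO libraries lay above WT. The log2 fold change (± SE, 2 libraries per group) was -0.30 ± 0.24 in Cis Stat6 KO against Cis KO, 0.09 ± 0.24 in Cis Stat6 KO against WT and 0.39 ± 0.24 in Cis KO against WT, with edgeR adjusted p of 0.53, 1 and 0.519. Over 14 alternative fits, it ran from -0.59 to -0.05 in Cis Stat6 KO against Cis KO and from 0.20 to 0.54 in Cis KO against WT. No change of Il4ra with the loss of STAT6 was detectable at this spread.

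Il13ra1 encodes the chain that joins IL4RA in the receptor for IL-4 and IL-13 on macrophages (ENSMUSG00000017057, mm10 chromosome X, 36112110 to 36171259, plus strand). It was at 113.7 and 107.6 CPM in Cis Stat6 KO, 82.6 and 65.7 CPM in Cis KO and 74.9 and 80.9 CPM in WT. The Cis Stat6 KO libraries were above the other 4. On the log2 scale, with SE over 2 libraries per group, the fold change was 0.58 ± 0.19 in Cis Stat6 KO against Cis KO and 0.51 ± 0.19 in Cis Stat6 KO against WT, with edgeR adjusted p of 0.219 and 0.833, and -0.07 ± 0.19 in Cis KO against WT (edgeR adjusted p = 0.884). DESeq2 called it higher in Cis Stat6 KO than in Cis KO, at 0.56 ± 0.20 with an adjusted p of 0.0457. With edgeR this difference was 0.76 without Cis KO replicate 1 and 0.41 without Cis KO replicate 2.

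Il2rg encodes the common gamma chain, which joins IL4RA, IL7R or the IL-2 receptor (ENSMUSG00000031304, mm10 chromosome X, 101264378 to 101268255, minus strand). It was at 105.2 and 132.9 CPM in Cis Stat6 KO, 100.1 and 178.0 CPM in Cis KO and 113.0 and 110.8 CPM in WT. The Cis KO replicates held both the lowest and the highest value. Fitted log2 fold changes (± SE, n = 2 each) were -0.22 ± 0.29 in Cis Stat6 KO against Cis KO, 0.09 ± 0.29 in Cis Stat6 KO against WT and 0.31 ± 0.29 in Cis KO against WT, with edgeR adjusted p of 0.705, 1 and 0.658. Both values that involve Cis KO turned with the library kept. Without Cis KO replicate 2 they were 0.24 for Cis Stat6 KO against Cis KO and -0.16 for Cis KO against WT. Without Cis KO replicate 1 they were -0.57 and 0.65. As FPKM, the ratio of Il13ra1 to Il2rg, which pair with IL4RA in alternative receptors, was 0.695 and 0.521 in Cis Stat6 KO, 0.53 and 0.237 in Cis KO and 0.426 and 0.47 in WT. The ratio in both Cis Stat6 KO libraries lay above that in both WT libraries, and the Cis KO libraries fell on both sides.

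**Figure D3:**
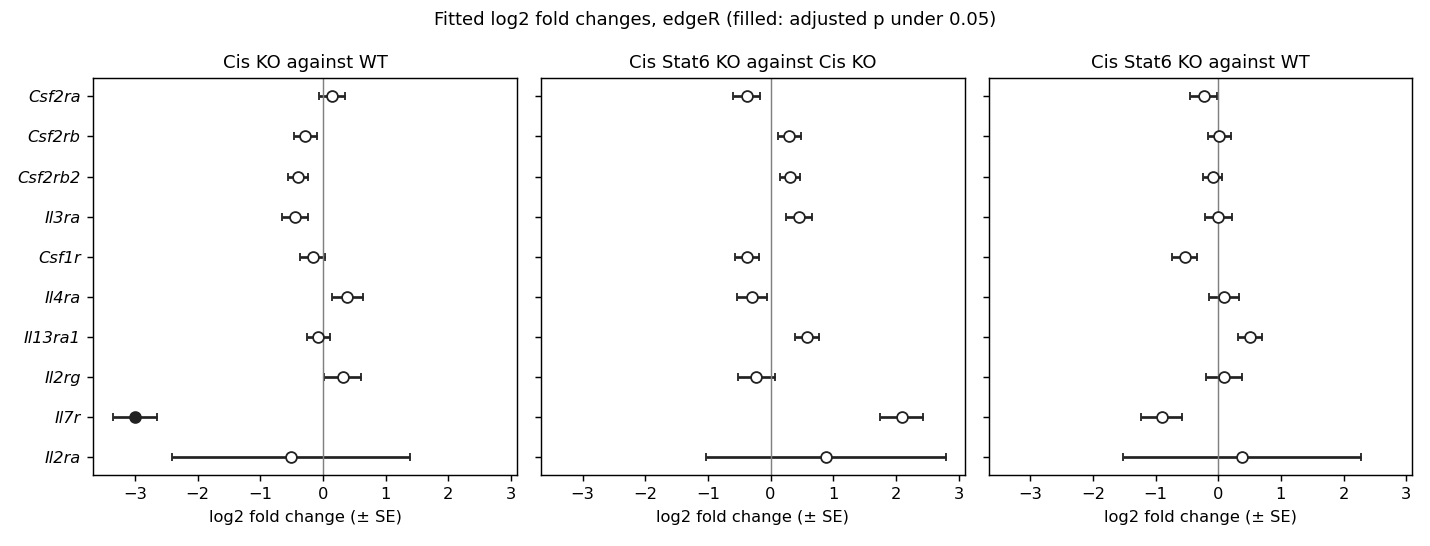
Fitted log2 fold changes (edgeR, bars are SE, n = 2 libraries per group) of the 10 receptor genes in the 3 comparisons; a filled point has an adjusted p under 0.05. Il7r in Cis KO against WT, at -3.00, is the only filled point, and Il2ra has a SE near 1.9 in each comparison.

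Il7r encodes the alpha chain that binds IL-7 and is also part of the TSLP receptor (ENSMUSG00000003882, mm10 chromosome 15, 9505788 to 9530176, minus strand). It had 777 and 898 counts in Cis Stat6 KO, 239 and 140 in Cis KO and 1908 and 1546 in WT. Scaled, that was 11.2 and 18.5 CPM in Cis Stat6 KO, 3.74 and 3.20 CPM in Cis KO and 32.9 and 22.6 CPM in WT. The 3 genotypes did not overlap: both Cis KO libraries were lowest, both Cis Stat6 KO libraries lay between, and both WT libraries were highest. Il7r averaged 3.47 ± 0.381 CPM in Cis KO and 27.8 ± 7.30 CPM in WT (SD, n = 2 each), a log2 fold change of -3.00 ± 0.36 (SE) that passed edgeR's test with an adjusted p of 0.0441. The Cis Stat6 KO mean was 14.8 ± 5.12 CPM (SD, n = 2). Relative to Cis KO this was a log2 fold change of 2.10 ± 0.34 with an edgeR adjusted p of 0.0841, and relative to WT -0.90 ± 0.33 with an edgeR adjusted p of 0.828, so neither passed.

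The direction of Il7r in Cis KO against WT did not depend on any of the 14 alternatives tried, but its call did. The log2 fold change stayed between -3.25 and -2.71, and the gene was called in 6 of 14. It was called on leaving out either Cis KO library, where the other stood alone for its group. It was not called by edgeR without WT replicate 1 (adjusted p 0.221), WT replicate 2 (0.128), Cis Stat6 KO replicate 1 (0.0885) or Cis Stat6 KO replicate 2 (0.0875). With library quality weights in limma-voom the adjusted p was 0.303, with only the groups compared 0.161 and without scaling 0.0533, whereas DESeq2 gave 4.37e-12. In Cis Stat6 KO against Cis KO, the log2 fold change ranged from 1.70 to 2.40 over the alternatives. There Il7r was called in 4 of 14, among them DESeq2 (adjusted p 6.83e-06) and edgeR with either Cis KO library standing alone for its group.

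**Figure D4:**
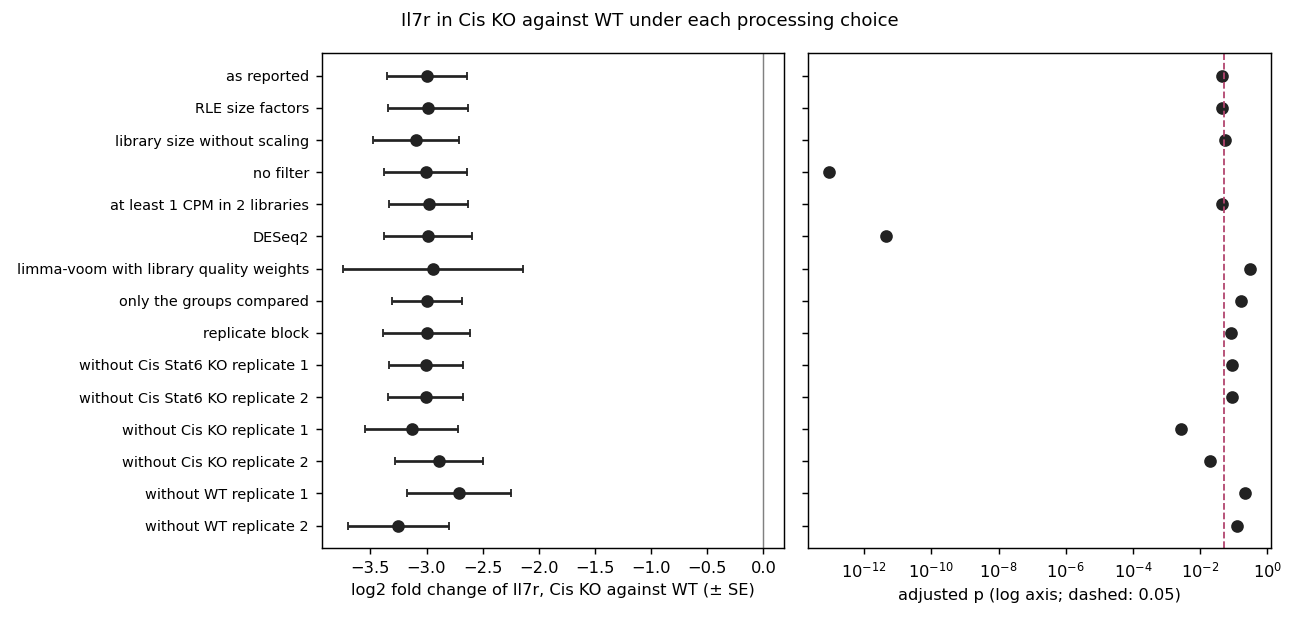
The log2 fold change of Il7r in Cis KO against WT (left, bars are SE) and its adjusted p (right, log axis, dashed line at 0.05) as reported and under each of 14 alternatives. Each fold change lies between -3.25 and -2.71, while the adjusted p runs from 9.17e-14 to 0.303.

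The promoter of Il7r is shown because Il7r was the only receptor gene that passed edgeR's test as reported above. The RefSeq promoter table (GRCm38.p6, the assembly of mm10) held 8 of the 10 receptor genes, each with 250 bases before and 50 after the RefSeq start. It was searched on both strands for TTCNNNGAA, the letters of a STAT5 site, and for AGGAAGT, an ETS-type motif such as PU.1 reads. TTCNNNGAA was in 2 of the 8 and in 8.30% of all 32851 promoters: in Il7r 142 to 134 bases before the start and in Csf2rb2 15 to 7 bases before it. AGGAAGT was in 4 of the 8 (Il7r, Il2ra, Il3ra and Csf2rb2) and in 9.35% of all promoters. These distances are from the RefSeq start of Il7r, position 9529876, which lies 300 bases inside the gene's span given above. In GENCODE M21 that span reaches 9530176 through 1 non-coding transcript, and the protein-coding transcripts start 41 and 48 bases downstream of the RefSeq start. A match is a run of letters and not evidence of binding. The promoters of Il7r (chr15:9529827-9530126, minus strand), Csf2rb2 (chr15:78305672-78305971, minus strand) and Il2ra (chr2:11642542-11642841, plus strand) follow, with the matches in capitals; AGGAAGT is on the opposite strand in all 3 and so reads ACTTCCT.
Il7r: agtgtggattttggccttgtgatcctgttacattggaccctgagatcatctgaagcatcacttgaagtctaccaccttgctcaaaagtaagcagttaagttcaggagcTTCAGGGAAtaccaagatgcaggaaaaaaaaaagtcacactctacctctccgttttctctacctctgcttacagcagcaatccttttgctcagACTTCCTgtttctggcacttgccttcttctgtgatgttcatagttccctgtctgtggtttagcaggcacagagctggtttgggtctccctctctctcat
Csf2rb2: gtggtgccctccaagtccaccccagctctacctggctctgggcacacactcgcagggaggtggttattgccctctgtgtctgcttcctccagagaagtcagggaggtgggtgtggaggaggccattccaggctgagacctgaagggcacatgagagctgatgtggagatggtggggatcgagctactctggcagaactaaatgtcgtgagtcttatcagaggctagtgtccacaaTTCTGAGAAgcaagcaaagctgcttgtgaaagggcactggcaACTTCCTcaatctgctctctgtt
Il2ra: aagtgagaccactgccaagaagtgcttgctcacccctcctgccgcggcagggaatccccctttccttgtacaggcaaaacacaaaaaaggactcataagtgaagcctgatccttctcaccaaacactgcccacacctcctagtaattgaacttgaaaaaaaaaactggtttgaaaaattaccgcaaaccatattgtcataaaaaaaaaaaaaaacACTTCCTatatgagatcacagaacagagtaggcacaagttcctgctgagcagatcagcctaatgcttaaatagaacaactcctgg

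The 5 genes whose pattern over the 6 libraries was nearest to that of Il7r, out of 9225 genes with a mean of at least 5 CPM, were Hmox1, Hspa1a, Ikbke, Tcp11l1 and Myo1d. Nearness was the root mean square difference of log2 CPM (0.1 CPM added) centred on each gene's mean. It ran from 0.34 (Hmox1) to 0.45 (Myo1d). Hmox1, the haem-degrading enzyme, was at 1262 and 1469 CPM in Cis Stat6 KO, 464.9 and 436.4 CPM in Cis KO and 2373 and 1837 CPM in WT. It was the gene of the 5 that passed edgeR's test in Cis KO against WT, at -2.22 ± 0.22 (log2, SE, n = 2 per group) with an adjusted p of 0.0268. Hspa1a, a heat shock chaperone, was at -2.63 ± 0.48 with an adjusted p of 0.137. For Il4ra the nearest genes were Ssbp3, Slc35e3, D17H6S53E, Ormdl3 and Gba2, at 0.05 to 0.08. For Csf2rb they were Rab22a, Prkcd, Arf6, Ubqln1 and Secisbp2, at 0.02 to 0.05.

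Il2ra encodes CD25, the chain that gives the IL-2 receptor its high affinity and marks activated and regulatory T cells (ENSMUSG00000026770, mm10 chromosome 2, 11642807 to 11693193, plus strand). It had 47 and 722 counts in Cis Stat6 KO, 526 and 6 in Cis KO and 646 and 55 in WT. Scaled, that was 0.679 and 14.8 CPM in Cis Stat6 KO, 8.22 and 0.137 CPM in Cis KO and 11.1 and 0.804 CPM in WT. Each genotype thus held a library with a high and a library with a low value, and the groups overlapped in every comparison. The log2 range over the 6 libraries, with 0.1 CPM added to each value, was 5.98, wider than in 99.2% of the genes tested. The log2 fold change (± SE, 2 libraries per group) was 0.88 ± 1.91 in Cis Stat6 KO against Cis KO, 0.38 ± 1.90 in Cis Stat6 KO against WT and -0.51 ± 1.90 in Cis KO against WT, with edgeR adjusted p of 0.837, 1 and 0.92. Leaving out single libraries moved the value in Cis KO against WT from -5.44 to 2.38.

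Some T cell genes moved with Il2ra between libraries and others did not. Ctla4, an inhibitory receptor of activated and regulatory T cells, was at 1.73 and 7.79 CPM in Cis Stat6 KO, 9.86 and 0.206 CPM in Cis KO and 14.1 and 2.56 CPM in WT. Il2rb, the beta chain of the IL-2 receptor, was at 1.03 and 6.46 CPM in Cis Stat6 KO, 3.49 and 1.32 CPM in Cis KO and 6.35 and 0.804 CPM in WT. In each genotype the library higher in Il2ra was also the higher in both genes. Ctla4 and Il2rb were chosen after the levels were seen, so this agreement is no test. The regulatory T cell markers Foxp3 and Ikzf4 each went against Il2ra in 1 genotype and with it in the others. In Cis KO, Foxp3 was at 0.109 and 1.00 CPM, and in Cis Stat6 KO, Ikzf4 was at 2.02 and 1.95 CPM. All 8 T cell markers had counts in every library. The library higher in Il2ra was the higher in 7 of the 8 in Cis Stat6 KO, in 3 in Cis KO and in 7 in WT. The exception in Cis Stat6 KO and WT was Cd2, and in Cis KO Cd2, Cd3d, Cd4, Cd8a and Lck were higher in replicate 2, where Il2ra had 6 counts. Lck, a kinase of the T cell receptor, was at 1.05 and 4.71 CPM in Cis Stat6 KO, 3.59 and 5.87 CPM in Cis KO and 5.31 and 0.994 CPM in WT. The sum of the 8 was 319.0 and 286.7 CPM in Cis Stat6 KO, 376.5 and 523.3 CPM in Cis KO and 310.0 and 315.6 CPM in WT, most of it from Cd2. Without Cd2, a choice made after seeing the data, the sum was 4.75 and 17.9 CPM in Cis Stat6 KO, 12.4 and 13.2 CPM in Cis KO and 21.3 and 4.79 CPM in WT. That sum followed Il2ra in Cis Stat6 KO and WT but not in Cis KO, where the replicate with 6 counts of Il2ra had 13.2 CPM. Foxp3, the factor that defines regulatory T cells, was at 1.00 CPM or less in every library. The part of T cells in the Il2ra values was not tested.

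**Figure D5:**
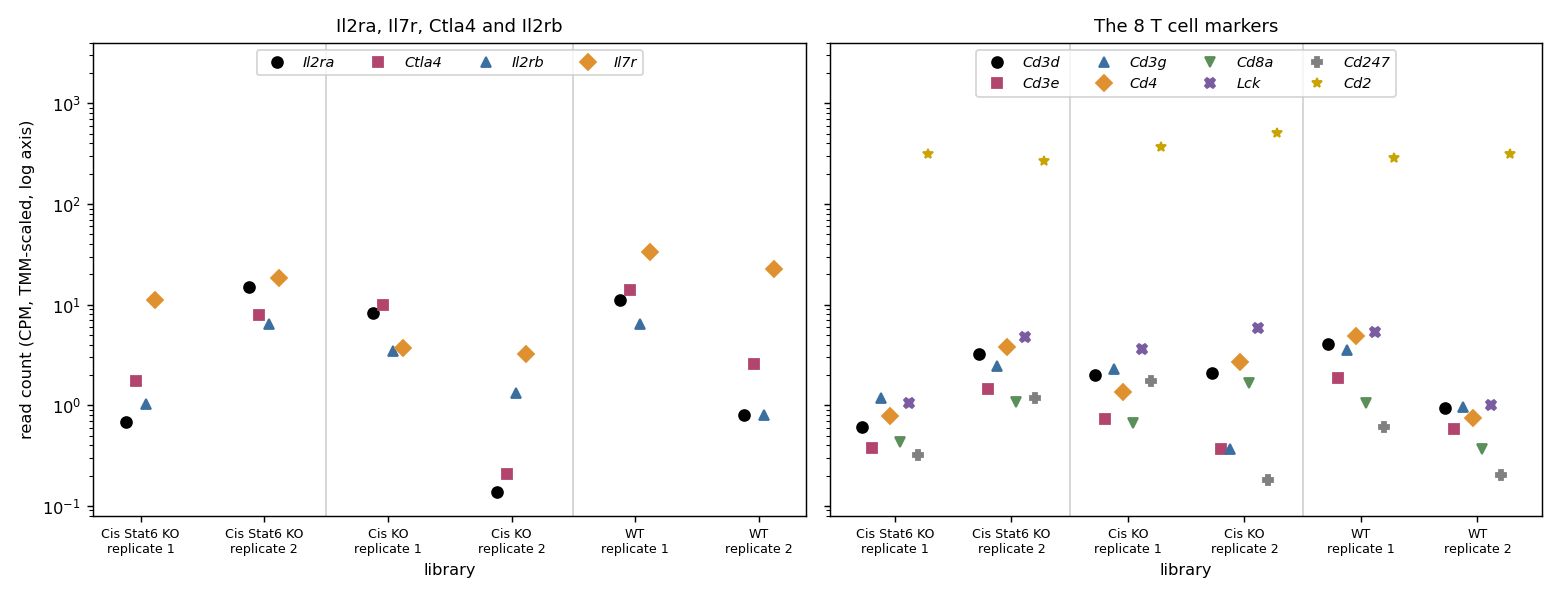
CPM (log axis) of Il2ra, Il7r, Ctla4 and Il2rb (left) and of all 8 T cell markers (right) in each of the 6 libraries. Il2ra spans 0.137 to 14.8 CPM, with a high and a low library in each genotype; in Cis KO replicate 2, where it is lowest, 5 of the 8 T cell markers are higher than in replicate 1.

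Among genes with a mean of at least 1 CPM, a limit set after seeing the data, those nearest in pattern to Il2ra, out of 10812, included Il21, Inpp4b, Tnfrsf4 and Ctla4, at root mean square differences of 0.57 to 0.79 (log2). Il21, a cytokine of helper T cells, was at 0.231 and 3.33 CPM in Cis Stat6 KO, 1.31 and 0 CPM in Cis KO and 2.02 and 0.278 CPM in WT. Il7r, which T cells also express, was higher in the library higher in Il2ra in each of the 3 genotypes. The part of T cells in the Il7r values was not tested. NK cell markers were low: the 4 NK cell markers summed to 0.361 and 2.26 CPM in Cis Stat6 KO, 0.297 and 0 CPM in Cis KO and 0.759 and 0.438 CPM in WT. Of the 4 innate lymphoid markers, Rora made up nearly all of the sum, at 39.0 and 39.5 CPM in Cis Stat6 KO, 15.9 and 5.25 CPM in Cis KO and 23.8 and 28.5 CPM in WT. Rora was lowest in both Cis KO libraries, as Il7r was. Its log2 fold change was 1.89 ± 0.48 in Cis Stat6 KO against Cis KO and -1.30 ± 0.48 in Cis KO against WT (SE, 2 libraries in each group), with edgeR adjusted p of 0.166 and 0.437, and DESeq2 called it higher in Cis Stat6 KO than in Cis KO. Gata3, which defines those cells, was at 0.535 CPM or less, and Il1rl1 and Areg at 0.234 CPM or less. Areg was highest in Cis KO replicate 1, unlike Rora. The part of innate lymphoid cells in the Il7r values was not tested.

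Most of the ligands of these receptors were at low levels in the lavage cells. Of 13 ligand genes, 10 had a count in at least 1 library, 5 passed the filter on low counts and 3 (Csf1, Il15 and Il21) reached 1 CPM in any library, while Il3, Il5 and Il9 had no count in any library. Csf2, the gene of GM-CSF, was at 0.0823 CPM or less, Il4 at 0.351 CPM or less and Il7 at 0.781 CPM or less. Csf1, the ligand of CSF1R, was at 18.9 and 46.5 CPM in Cis Stat6 KO, 2.94 and 3.84 CPM in Cis KO and 9.13 and 7.29 CPM in WT. The genotypes did not overlap in Csf1: Cis Stat6 KO was highest and Cis KO lowest. On the log2 scale, with SE over 2 libraries per group, the fold change was 3.27 ± 0.47 in Cis Stat6 KO against Cis KO, 1.99 ± 0.45 in Cis Stat6 KO against WT and -1.28 ± 0.45 in Cis KO against WT, with edgeR adjusted p of 0.0636, 0.331 and 0.431. DESeq2 called Csf1 higher in Cis Stat6 KO than in either other genotype, and limma-voom with library quality weights higher than in WT. edgeR called 0 of the 5 tested ligands in each comparison, with 1 at an unadjusted p under 0.05 in each. Their median log2 fold change was 1.42 in Cis Stat6 KO against Cis KO, 0.63 in Cis Stat6 KO against WT and -0.79 in Cis KO against WT. Beside this list and those below, 18.3%, 5.36% and 11.1% of all genes were at an unadjusted p under 0.05 in these comparisons. DESeq2 called 9.18%, 1.89% and 3.21% of all genes.

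Of 10 further receptor chains, 7 were tested and edgeR called 0 in each comparison, with 0 at an unadjusted p under 0.05 in Cis Stat6 KO against Cis KO, 2 in Cis Stat6 KO against WT and 1 in Cis KO against WT. Their medians were 0.18, 0.06 and 0.42. The share of all genes under that p was 18.3%, 5.36% and 11.1%. Il5ra, which pairs with the common beta chain for IL-5 and marks eosinophils, and Il13ra2, the decoy receptor for IL-13, had no count in any library. Crlf2, the partner of IL7R in the TSLP receptor, was at 38.1 and 37.8 CPM in Cis Stat6 KO, 28.7 and 95.0 CPM in Cis KO and 48.0 and 44.1 CPM in WT. Its Cis KO libraries lay on both sides of all others, unlike those of Il7r. Csf3r, the G-CSF receptor, is also among the neutrophil markers. It was at 64.2 and 53.9 CPM in Cis Stat6 KO, 61.8 and 61.1 CPM in Cis KO and 115.7 and 113.3 CPM in WT. All 4 mutant libraries were below WT. In log2 units, with SE over 2 libraries per group, it stood at -0.95 ± 0.18 in Cis Stat6 KO against WT and -0.90 ± 0.18 in Cis KO against WT, with edgeR adjusted p of 0.197 and 0.181. DESeq2 called it lower in both, and limma-voom with library quality weights in Cis Stat6 KO against WT.

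Downstream of the receptors, 1 of 9 kinases and STATs was called: Stat6, at -3.09 ± 0.20 (log2, SE, n = 2 per group) in Cis Stat6 KO against Cis KO and -3.01 ± 0.20 in Cis Stat6 KO against WT, with edgeR adjusted p of 0.0061 and 0.00988. Stat6 is a gene targeted in Cis Stat6 KO, so its call says nothing about the rest of the list. In Cis KO against WT edgeR called 0 of 9, with 0 at an unadjusted p under 0.05. Jak1, Jak2, Jak3, Tyk2, Stat3, Stat5a and Stat5b were among those not called, and the medians of the list were -0.03, -0.18 and -0.16 in the order of these comparisons. Jak3, the kinase that the gamma chain holds, was at 29.3 and 26.1 CPM in Cis Stat6 KO, 26.5 and 59.4 CPM in Cis KO and 33.4 and 32.3 CPM in WT. As in Il2rg, its highest value was in Cis KO replicate 2.

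Negative regulators and genes that STAT5 induces gave no call by edgeR. Of 11 regulators, 0 were called, with 1, 1 and 2 at an unadjusted p under 0.05 in Cis Stat6 KO against Cis KO, Cis Stat6 KO against WT and Cis KO against WT, and medians of 0.02, -0.11 and -0.04. Cish itself, at -3.93 ± 0.52 in Cis Stat6 KO against WT and -3.70 ± 0.52 in Cis KO against WT (log2, SE, n = 2 per group), missed edgeR's threshold with adjusted p of 0.0767 and 0.0624 and was called by DESeq2 in both. DESeq2 also called Sh2b3, an adaptor that restrains JAK2, lower in Cis Stat6 KO than in Cis KO. The 1 regulator at an unadjusted p under 0.05 in Cis Stat6 KO against WT was Cish, the deleted gene. Cish was also 1 of the 2 in Cis KO against WT. Over all genes, 18.3%, 5.36% and 11.1% were under that p in the order above. Of 8 genes that STAT5 induces, Cish among them, edgeR called 0 in each comparison. At an unadjusted p under 0.05 there were 1, 1 and 3, with medians of 0.44, 0.25 and -0.31. Cish was again the 1 in Cis Stat6 KO against WT and 1 of the 3 in Cis KO against WT. Osm, a cytokine that STAT5 induces, was at 14.1 and 15.8 CPM in Cis Stat6 KO, 7.52 and 3.84 CPM in Cis KO and 14.2 and 12.2 CPM in WT. Both Cis KO libraries were the lowest, and DESeq2 called Osm higher in Cis Stat6 KO than in Cis KO.

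Of 9 genes of alveolar macrophages that depend on GM-CSF, edgeR called 0 in each comparison, with 6, 2 and 2 at an unadjusted p under 0.05 in Cis Stat6 KO against Cis KO, Cis Stat6 KO against WT and Cis KO against WT. Their medians were -0.10, 0.17 and 0.11. Of all genes, 18.3%, 5.36% and 11.1% were under that p, and DESeq2 called 9.18%, 1.89% and 3.21%. In the first of these comparisons DESeq2 called 3 higher (Cd36, Fabp4 and Lpl, which take up, bind and release fatty acids) and 3 lower (Abcg1, Cidec and Plin2, of cholesterol export and lipid droplets). Car4, a carbonic anhydrase of alveolar macrophages, was at 872.5 and 870.4 CPM in Cis Stat6 KO, 636.6 and 1227 CPM in Cis KO and 368.5 and 441.7 CPM in WT. The 4 mutant libraries were above WT, and DESeq2 called Car4 higher in Cis Stat6 KO and in Cis KO than in WT. With edgeR its log2 fold change was 1.11 ± 0.32 in Cis Stat6 KO against WT and 1.20 ± 0.32 in Cis KO against WT (SE, n = 2 per group), with adjusted p of 0.57 and 0.353.

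Of 16 genes known to be induced by IL-4 through STAT6, 14 were tested and edgeR called 0 in each comparison, with 3, 3 and 4 at an unadjusted p under 0.05 and medians of 0.23, 0.44 and 0.56 in the same order. The unadjusted shares of all genes were 18.3%, 5.36% and 11.1%. DESeq2 called Chil3 higher and Batf3 lower in Cis Stat6 KO than in Cis KO. In Cis KO against WT it called Cdh1 higher and Retnla lower. Batf3 was at 2.20 and 2.53 CPM in Cis Stat6 KO, 4.67 and 17.1 CPM in Cis KO and 3.14 and 4.94 CPM in WT. Its highest value was thus in Cis KO replicate 2. Retnla was low throughout, at 0.0469 and 0 CPM in Cis KO and 1.54 and 0.687 CPM in WT. Ch25h, cholesterol 25-hydroxylase, was at 76.3 and 118.5 CPM in Cis Stat6 KO, 42.2 and 65.5 CPM in Cis KO and 30.0 and 32.7 CPM in WT. Cdh1, the gene of E-cadherin, was at 75.4 and 59.6 CPM in Cis Stat6 KO, 55.0 and 68.6 CPM in Cis KO and 31.2 and 37.0 CPM in WT. In both genes the mutant libraries lay above those of WT. DESeq2 and limma-voom with library quality weights called Ch25h and Cdh1 higher in Cis Stat6 KO than in WT, where edgeR gave 1.64 ± 0.31 and 0.99 ± 0.22 (log2, SE, n = 2 per group) with adjusted p of 0.204 and 0.334.

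Of 9 transcription factors that act on the receptor genes, edgeR called 0 in each comparison, with 3, 0 and 2 at an unadjusted p under 0.05 and medians of -0.37, -0.11 and -0.10. Under that p were 18.3%, 5.36% and 11.1% of all genes. DESeq2 called Spi1 lower in Cis Stat6 KO than in Cis KO and Klf2 higher in Cis KO than in WT. Klf2 was at 7.92 and 11.9 CPM in Cis Stat6 KO, 13.5 and 42.7 CPM in Cis KO and 9.82 and 6.84 CPM in WT, highest in Cis KO replicate 2. Spi1, the gene of PU.1, was at 367.9 and 329.2 CPM in Cis Stat6 KO, 434.8 and 968.5 CPM in Cis KO and 377.6 and 373.6 CPM in WT. The value in Cis KO replicate 2 was more than that of any other library, as for Csf2ra, Il4ra and Il2rg. Cebpa was at 369.7 and 231.8 CPM in Cis Stat6 KO, 484.5 and 456.2 CPM in Cis KO and 389.3 and 414.6 CPM in WT, with the Cis Stat6 KO libraries lowest. In Cis Stat6 KO against Cis KO it differed by -0.65 ± 0.25 (log2, SE, n = 2 per group), with an edgeR adjusted p of 0.25.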

How the data were processed

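Bulk RNA of BALF cells was measured in 6 libraries of 3 genotypes, 2 libraries each. The authors deposited 1 raw count per gene and library, not normalised, and an FPKM value (a count per transcript length and library total, rounded to 0.01), per the file headers. Genome build mm10 is named in the submitters' processing notes. The sources used here do not name the aligner, the counting tool or the strandedness, so reads shared between overlapping or antisense genes cannot be placed. Il2ra and Il2rg overlap predicted genes of at most 18 counts.

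Counts were fitted with edgeR 4.0.16 in R 4.3.3: TMM scaling (factors 0.863 to 1.077), filterByExpr, 16765 genes tested, all 6 libraries in 1 fit with genotype as the factor, two-sided quasi-likelihood F tests, Benjamini-Hochberg adjustment over all genes and a threshold of 0.05. A gene is called when it passed. SE is the size of the log2 fold change over the square root of F. CPM came from edgeR with the TMM factors. The library totals were 50762354 to 65937118 counts. The common biological coefficient of variation, over all genes tested, was 50.3%, with 3 residual degrees of freedom. Whether the spread of each receptor gene exceeded counting error was not tested.

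The members, the 8 pathway lists, the 14 marker lists and the rule for named genes (every member; any gene of a list; for Il7r, Il4ra and Csf2rb the 5 nearest patterns) were chosen with earlier results of these data known. Patterns like Il2ra and the T cell sum without Cd2 were added after seeing the data. So was the comparison of T cell markers, Ctla4, Il2rb and Il7r with Il2ra by library. Siglec5 is not analysed here. Some genes of these lists and patterns are not reported here. Alternatives were DESeq2 1.42.0, limma-voom with library quality weights (limma 3.58.1), other scaling and filters, only the groups compared, a block, Csf2rb and Csf2rb2 summed, and each library left out. Where this left 1 library in a group, that library was taken to vary like the others. The fits were tested on simulated data with less spread than these libraries and no outlying library. That test does not show how the fits perform at the spread found here.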

Additional observations from a re-analysis of the deposited data

How the results depend on the processing

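The number of genes called by edgeR depended on the processing, and the cause was not tested. The 60 calls of Cis Stat6 KO against Cis KO became 29 without scaling, 1840 without a filter, 1539 with DESeq2, 23 with library quality weights and 5 with only the groups compared. The 22 calls of Cis Stat6 KO against WT became 385 without a filter, 317 with DESeq2, 470 with library quality weights and 277 with only the groups compared. The 46 calls of Cis KO against WT became 26 without scaling, 1021 without a filter, 538 with DESeq2 and 6 with only the groups compared. Leaving out each library gave 4 to 5999, 0 to 350 and 3 to 5349 calls in these comparisons. Where the left-out library was of Cis KO, the spread of that pair left the test.

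Of the receptor genes, in Cis KO against WT 0 were called without scaling, with library quality weights and with only the groups compared. In Cis Stat6 KO against Cis KO 1 was called without a filter (Il7r) and 2 with DESeq2 (Il13ra1 and Il7r). Receptor calls on leaving out each library are not counted for these comparisons, since 1 library then stood alone for a group. In Cis Stat6 KO against WT 0 were called under every alternative run.

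With the replicate number as a block, 28, 12 and 24 genes were called in Cis Stat6 KO against Cis KO, Cis Stat6 KO against WT and Cis KO against WT, and 0 receptor genes in each, with an adjusted p of 0.0826 for Il7r in the last (replicate block). Libraries of equal number correlated at 0.02, -0.09 and -0.05 in their deviations from the group means, so the number was not taken as a pairing.

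Small differences changed sign. In Cis Stat6 KO against WT, Csf2rb was at -0.052 (log2) without scaling and -0.013 when summed with Csf2rb2, Il3ra at -0.072 without scaling and -0.0069 without a filter, and Il2ra at -0.080 with library quality weights. Leaving out each library there gave -0.078 to 0.11 for Csf2rb, -0.085 to 0.093 for Il3ra, -0.21 to 0.33 for Il4ra, -0.089 to 0.23 for Il2rg and -3.13 to 3.25 for Il2ra. For Cis Stat6 KO against Cis KO it gave -0.57 to 0.24 for Il2rg and -2.62 to 5.80 for Il2ra. In Cis KO against WT it gave -0.13 to 0.37 for Csf2ra, -0.26 to 0.086 for Il13ra1, -0.16 to 0.65 for Il2rg and -5.44 to 2.38 for Il2ra. Over all 10 genes, the sign turned in 24 of 426 values. The median of all genes shifted to -0.15 in Cis KO against WT without scaling, and to 0.20 in Cis Stat6 KO against Cis KO and -0.20 in Cis KO against WT without Cis KO replicate 1.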

Other observations

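Ratios between receptor chains, computed from FPKM within each library, give a view that no library scaling can move. The alpha chain Csf2ra over both beta chains together was 0.88 and 0.924 in Cis Stat6 KO, 1.15 and 1.77 in Cis KO and 1.11 and 0.984 in WT. Csf2rb2 serves IL-3, so this is not a ratio within the GM-CSF receptor alone, and the ratio to Csf2rb by itself was not computed. The Cis Stat6 KO libraries were the lowest. Cis KO replicate 2 was above the rest, while Cis KO replicate 1 (1.15) was near WT replicate 1 (1.11). For the IL-7 receptor, Il2rg over Il7r was 18.3 and 14.1 in Cis Stat6 KO, 52.8 and 108.9 in Cis KO and 6.71 and 9.58 in WT, so the 3 genotypes did not overlap. Il4ra over Il2rg, the pair of the IL-4 receptor of lymphocytes, was 0.72 and 0.396 in Cis Stat6 KO, 0.692 and 0.498 in Cis KO and 0.484 and 0.593 in WT, with overlapping ranges. These ratios were added after seeing the data and were not tested.

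Markers of other cells that carry these receptors were low in most libraries. The 6 markers of monocyte-derived macrophages summed to 16.8 and 9.81 CPM in Cis Stat6 KO, 18.6 and 20.3 CPM in Cis KO and 13.2 and 12.5 CPM in WT, and the 7 of dendritic cells to 7.47 and 11.1 CPM in Cis Stat6 KO, 11.8 and 14.7 CPM in Cis KO and 9.95 and 3.64 CPM in WT. The 3 markers of regulatory T cells summed to 3.84 and 9.95 CPM in Cis Stat6 KO, 11.3 and 1.30 CPM in Cis KO and 15.6 and 3.70 CPM in WT. Ctla4 made up most of it except in Cis Stat6 KO replicate 1 (1.73 CPM) and Cis KO replicate 2 (0.206 CPM, with Foxp3 at 1.00 CPM). Eosinophil markers summed to at most 0.466 CPM, mast cell and basophil markers to at most 1.67 CPM and endothelial markers to at most 3.15 CPM. Epithelial markers summed to 26.5 and 11.8 CPM in Cis Stat6 KO, 26.8 and 166.1 CPM in Cis KO and 66.5 and 80.0 CPM in WT. Erythroid markers summed to 353.5 and 42.7 CPM in Cis Stat6 KO, 15.0 and 38639 CPM in Cis KO and 200.0 and 191.5 CPM in WT.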
